A study of Mus musculus with 12 samples.

Results

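The pore-forming subunits of the AMPA and kainate classes of glutamate receptor were followed in the dorsal root ganglia of newborn mice raised under early life stress. The members were the 9 genes Gria1 to Gria4 (AMPA) and Grik1 to Grik5 (kainate), taken by gene symbol from the 15322 genes of the deposited table. All 9 were in the table and all 9 passed the filter on low values. Dorsal root ganglia hold the cell bodies of the sensory neurons beside the spinal cord. In this study total RNA was sequenced from lumbar L3 to L5 ganglia at postnatal day 9. The stress groups were wild-type (WT) pups kept with their dam under neonatal limited bedding from postnatal day 2 to day 9, and the control groups were WT pups kept under the control bedding protocol for the same days. There were 4 groups of 3 libraries: stress females, stress males, control females and control males. No strain was given. The labels also do not say whether libraries came from separate litters or pooled animals, so p-values measure the sample-to-sample spread alone, and that spread may be technical.

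AMPA and kainate receptors are tetrameric ion channels opened by glutamate. AMPA receptors carry most of the fast excitatory transmission of the central nervous system, and the subunit encoded by Gria2 sets their calcium permeability. Of the kainate subunits, those of Grik1, Grik2 and Grik3 can form channels on their own, while those of Grik4 and Grik5 bind glutamate tightly but need a partner from the first set. Sensory neurons use glutamate as their transmitter. Many nociceptors carry kainate receptors built around the Grik1 product, at the cell body and on the central terminals, where such receptors can alter transmitter release.

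The pore loop is where the 9 subunits meet the permeating ions, and 1 codon in it decides calcium entry. This Q/R-site codon, which encodes glutamine in the genome, is known to be edited in the RNA of Gria2, Grik1 and Grik2. An adenosine deaminase acting on RNA changes its A to inosine, which is read as G, so that the edited codon encodes arginine. Windows of 45 coding bases around this codon are shown because they set the members side by side at a site edited in the RNA of only some of them. They were read from the GENCODE M21 transcripts (mouse build mm10), 5′ to 3′ on the coding strand, with the Q/R-site codon in capitals.
Gria1: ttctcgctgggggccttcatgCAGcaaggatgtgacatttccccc
Gria2: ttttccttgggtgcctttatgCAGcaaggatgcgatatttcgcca
Gria3: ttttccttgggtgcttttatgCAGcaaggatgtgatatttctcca
Gria4: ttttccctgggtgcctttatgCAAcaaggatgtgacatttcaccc
Grik1: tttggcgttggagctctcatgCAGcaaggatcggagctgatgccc
Grik2: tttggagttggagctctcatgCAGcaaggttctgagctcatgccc
Grik3: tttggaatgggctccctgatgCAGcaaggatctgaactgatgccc
Grik4: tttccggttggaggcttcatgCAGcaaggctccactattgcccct
Grik5: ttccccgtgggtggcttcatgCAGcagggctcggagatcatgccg
The codon was CAG in 8 of the 9 members and CAA in Gria4. The Gria2 and Gria3 windows were the most alike, with 93.3% identical bases, and those of Grik1 and Grik2 followed with 91.1%. The least alike were Grik3 and Grik4, with 53.3%. The window lay in exon 11 of 16 in Gria2 (chr3:80706890-80706934, minus strand), in exon 12 of 17 in Gria4 (chr9:4464116-4464160, minus strand) and in exon 15 of 20 in Grik5 (chr7:25022476-25022520, minus strand). In Grik1, Grik2 and Grik3 it crossed the junction of exons 12 and 13 (of 17 in Grik1 and of 16 in Grik3) or of exons 13 and 14 (of 17, in Grik2). These files hold gene totals, so the share of edited RNA was not analysed here. Exon bases of Gria2, Gria3, Gria4 and Grik4 are shared with annotated small RNA genes, and no member shares exon bases with another protein-coding gene.

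The ganglia contained one dominant kainate transcript. Values are normalized counts, read counts that the authors scaled for library size, and levels of different genes are compared after division by transcript length in kilobases. Over the 12 libraries Grik1 averaged 2102 ± 91.0 normalized counts per kb (SD). Its lowest library, at 1965, was above the highest of any other member. Grik5 followed at 439 ± 45.1, then Gria4 at 273 ± 20.5, Grik4 at 174 ± 9.73 and Gria1 at 136 ± 11.6 normalized counts per kb. No neighbours in this upper stretch of the order overlapped in any library. Gria3 (80.5 ± 5.44), Gria2 (74.7 ± 6.64) and Grik3 (73.7 ± 7.60) overlapped from one to the next, and their order is within the spread between libraries. Grik2 was the lowest at 33.2 ± 5.04 normalized counts per kb, below every Grik3 library.

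**Figure D1:**
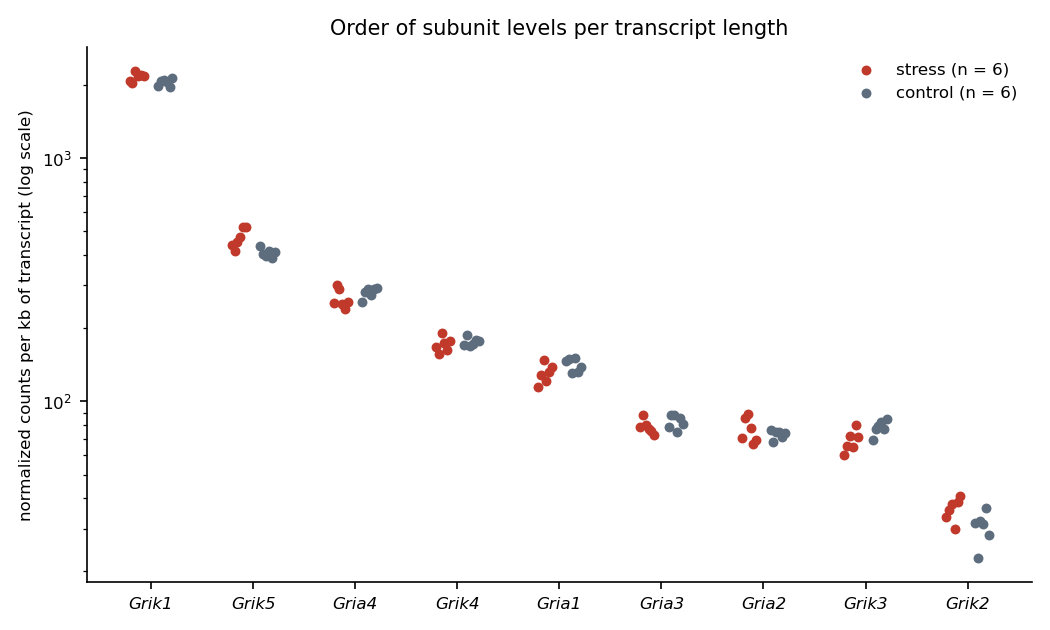
Level of each subunit transcript in normalized counts per kb of transcript (log axis), with 1 point per library, stress libraries (n = 6) on the left and control libraries (n = 6) on the right of each gene. Grik1 lies at 1965 or above in every library and Grik2 at 40.7 or below, while Gria3, Gria2 and Grik3 overlap.

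Part of this order depends on which length is used. Gria2 has the longest transcript of the 9, at 10371 bases, of which 2649 are coding. Per kb of coding sequence the mean of Gria2 was 293 and moved ahead of Gria1 (269.5) and Gria3 (157), while Grik3 stood at 239.9. Gria2 and Gria1 overlapped, with Gria2 the higher in 8 of 12 libraries. Overlap was also seen between Grik5 (563) and Gria4 (539), Grik4 and Gria2, and Gria1 and Grik3. Grik1 (2742 per coding kb) remained first and Grik2 (115) last on both scales. Within the AMPA family Gria4 gave 48.3% of the transcripts per kb of transcript and 42.8% per kb of coding sequence, as means of the 12 libraries. The share of Gria2, the subunit that limits calcium entry, was 13.3% per kb of transcript and 23.2% per kb of coding sequence. Within the kainate family Grik1 gave 74.5% and 68.3% on these scales. Which isoform each gene expressed is not given by gene totals, so these shares rest on 1 transcript per gene.

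Of the 9 members, 2 passed the test over both sexes, Grik5 upward and Grik3 downward. The test was limma on log2(value + 1), with adjustment over all 15194 genes tested, and a gene was called at an adjusted p under 0.05. By that rule 26.2% of all genes tested were called, 12.8% higher and 13.4% lower in stress, so 2 of 9 is close to the share of all genes. The 9 members had a median log2 fold change of -0.04, against 0.01 for all genes tested. In females 0 of the 9 were called, against 11.0% of all genes tested, and 1 of the 9 had an unadjusted p under 0.05, against 25.5% of all genes tested. In males 1 of the 9 was called, against 15.8% of all genes tested. In no member did all 6 stress libraries lie outside the range of the 6 control libraries, which happened for 10.9% of all genes tested. Within females 1 of the 9 did not overlap between treatments (Grik2), against 30.7% of all genes tested, and within males 3 did not (Grik1, Grik5 and Gria4), against 32.8%.

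**Figure D2:**
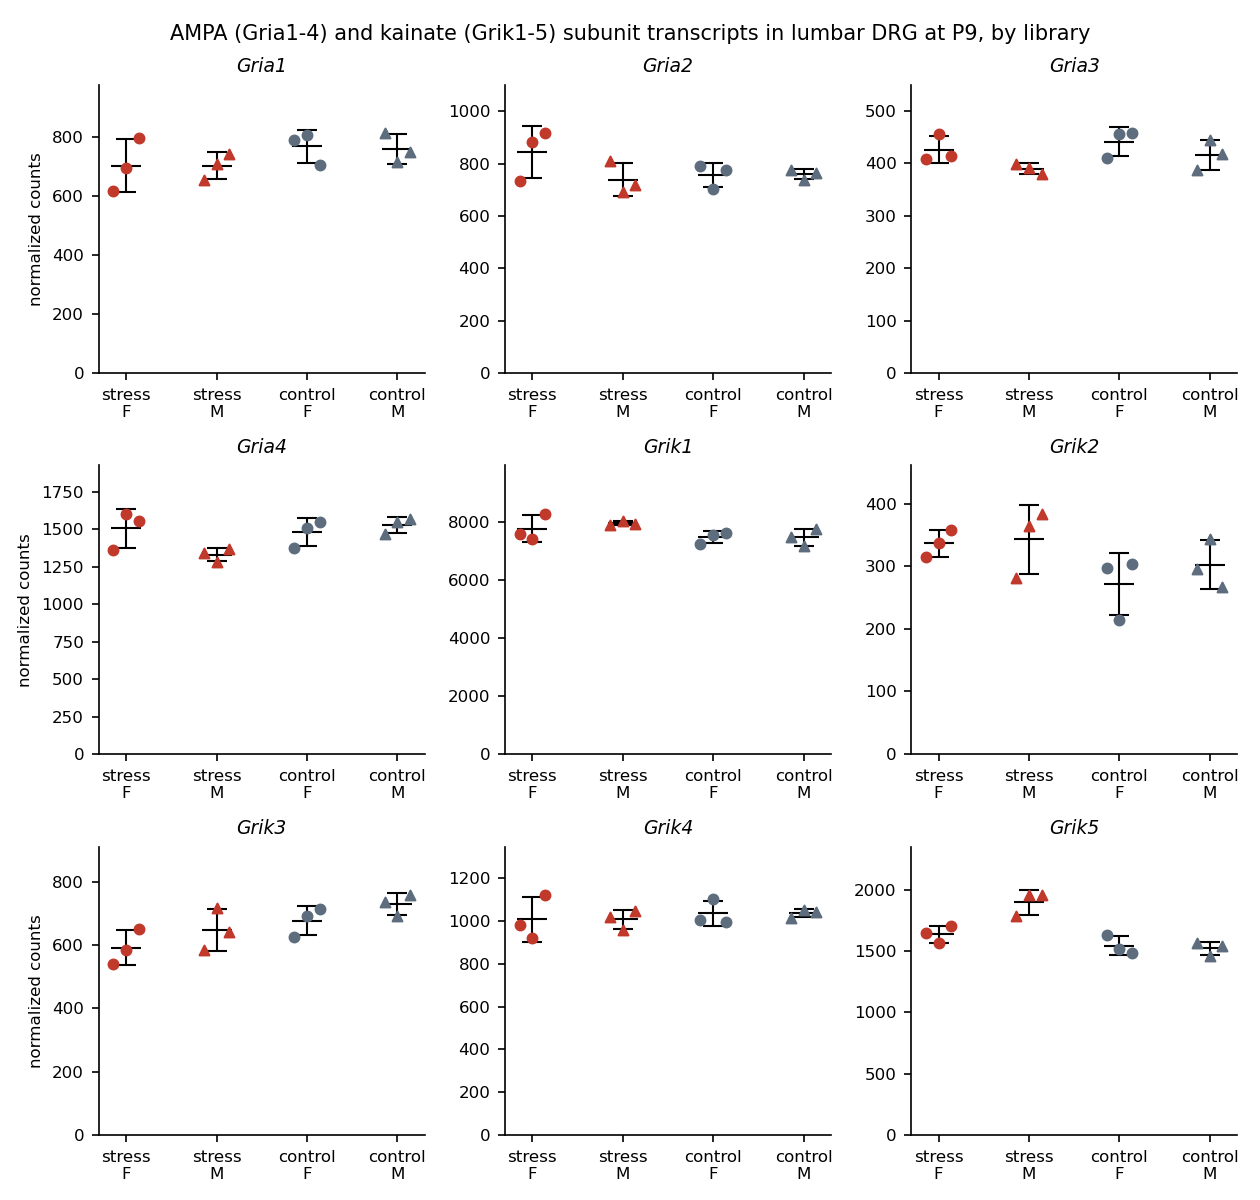
Normalized counts of the 9 subunit transcripts in each library, with females as circles, males as triangles, stress in red and control in grey, and the black bar and whiskers giving the mean ± SD of 3 libraries. Grik5 is highest in the 3 stress males (1784 to 1962), and the stress and control libraries of most other members overlap.

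Among the AMPA subunits no transcript passed the test. Gria1 (chr11:57011387-57330244, plus strand), a subunit delivered to synapses during potentiation in the brain, had a lowest, median and highest value of 617, 702 and 797 normalized counts in stress libraries, against 705, 770.1 and 816 in control libraries. Of the 6 stress libraries, 3 lay below all control libraries, and the rest overlapped. The log2 fold change was -0.12 ± 0.07 (SE), with a limma adjusted p of 0.196 and a 95% interval of 0.832 to 1.01 fold. Gria2 (chr3:80681450-80802835, minus strand) had 690.4, 771 and 919 normalized counts in stress libraries, against 704, 770.0 and 789.7 in control libraries. The stress libraries spanned and exceeded the control range, with 3 above it and 1 below it. The difference was 0.06 ± 0.06 in log2 (limma adjusted p = 0.563), with a 95% interval of 0.947 to 1.14 fold.

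Gria3 lies on the X chromosome (chrX:41400854-41678601, plus strand). It had 379, 403 and 455 normalized counts as lowest, median and highest values in stress libraries, against 387, 430.4 and 458 in control libraries, a log2 difference of -0.07 ± 0.06 (limma adjusted p = 0.430). Males against females did not pass the test for it: the log2 difference of males over females was -0.10 ± 0.06, with a limma adjusted p of 0.616.

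Gria4 (chr9:4417896-4796234, minus strand), the most abundant AMPA transcript of these ganglia, encodes a fast-gating subunit. It had 1359.6, 1603 and 1555 normalized counts in the 3 stress females, against 1373, 1509.8 and 1550.2 in the 3 control females. In males it had 1339, 1279.7 and 1367 normalized counts under stress, against 1469.5, 1547 and 1565 under control bedding. The female groups overlapped and the male groups did not. The log2 fold change was 0.03 ± 0.07 in females (limma adjusted p = 0.858) and -0.20 ± 0.07 in males, where the limma adjusted p of 0.0666 missed the threshold. The difference between the 2 effects was -0.23 ± 0.10, with an adjusted p of 0.587. Over both sexes the log2 fold change was -0.09 ± 0.05 (limma adjusted p = 0.219).

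Of the kainate subunits that form channels on their own, Grik3 fell, while Grik1 and Grik2 did not pass the test. Grik1 (chr16:87895900-88290265, minus strand) had 7444, 7939 and 8307 normalized counts as lowest, median and highest values in stress libraries, against 7182, 7547 and 7764 in control libraries. Although 4 of the 6 stress libraries were above all control libraries, the log2 fold change was 0.07 ± 0.04 (limma adjusted p = 0.182). Its 95% interval, 0.994 to 1.11 fold, was the narrowest of the members. In males all 3 stress libraries (7917 to 8054) exceeded the 3 control libraries (7182 to 7764), a log2 difference of 0.09 ± 0.06 with a limma adjusted p of 0.279.

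Grik2 (chr10:49094833-49788766, minus strand), the other subunit of this set whose RNA is edited, was at 315, 337 and 357 normalized counts in stress females and 281, 364 and 384 in stress males. In control females it was at 298, 214 and 303, and in control males at 295, 344 and 267. The female groups did not overlap and the male groups did. It had the largest fitted difference of the 9, a log2 fold change of 0.25 ± 0.10, and the widest 95% interval among them, 1.02 to 1.39 fold. At a limma adjusted p of 0.0887 it was not called. Without stress male replicate 1, its lowest stress library, the log2 fold change was 0.32 and the limma adjusted p 0.0307.

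Grik3 (chr4:125490700-125714173, plus strand) encodes a subunit with low affinity for glutamate. It had 541, 585 and 649.5 normalized counts in stress females and 584, 718 and 642 in stress males, against 625.2, 691 and 713 in control females and 737, 693 and 759.7 in control males. The groups overlapped, with 3 of 6 stress libraries below all control libraries. It averaged 620.0 ± 62.8 normalized counts in stress libraries and 703 ± 46.4 in control libraries (SD, n = 6 each). It fell to 0.880 fold (95% interval 0.800 to 0.968), a log2 fold change of -0.18 ± 0.07 with a limma adjusted p of 0.0462. The call was near the threshold: with 1 library left out in turn it was lost in 9 of 12 cases, with adjusted p-values between 0.0183 and 0.120. It held only without control female replicate 1, stress female replicate 3 or stress male replicate 2. The log2 fold change was -0.19 in females (limma adjusted p = 0.197) and -0.17 in males (limma adjusted p = 0.217), and neither was called alone.

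Of the high-affinity subunits, Grik5 rose and Grik4 did not pass the test. Grik5 (chr7:25009849-25072346, minus strand) was at 1648, 1567 and 1703 normalized counts in stress females and 1784, 1962 and 1957 in stress males, against 1632, 1522 and 1485 in control females and 1566, 1461 and 1544 in control males. All but 1 of the 6 stress libraries were above every control library, and the male groups did not overlap. It averaged 1770.2 ± 163 normalized counts in stress libraries and 1535 ± 60.8 in control libraries (SD, n = 6 each). The fold was 1.15 (95% interval 1.08 to 1.23), a log2 fold change of 0.20 ± 0.04 with a limma adjusted p of 0.00352. It was called with each of the 12 libraries left out in turn, at log2 fold changes of 0.19 to 0.22. With a red blood cell marker score as a covariate the log2 fold change was 0.20 and the call was lost (limma adjusted p = 0.0626).

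The Grik5 difference was called in males (0.32 ± 0.06 in log2, 1.25 fold, limma adjusted p = 0.00301) and not in females (0.08 ± 0.06, limma adjusted p = 0.433). With the red blood cell score the male call was lost too (0.32, limma adjusted p = 0.0514). The effects of the sexes were then compared directly. The male effect exceeded the female one by 0.23 ± 0.09 in log2, with a limma adjusted p of 0.564, so a difference between the sexes was not shown. No gene of the table was called in that comparison (0% of the genes tested), although 8.29% of them, and 2 of the 9 members (Gria4 and Grik5), had an unadjusted p under 0.05. Between males and females over both treatments 0.0987% of the genes tested were called and 0 of the 9 members, of which 1, Grik5, had an unadjusted p under 0.05, against 9.46% of all genes tested. Grik4 (chr9:42518135-42944493, minus strand) had 921, 1001 and 1124 normalized counts as lowest, median and highest values in stress libraries, against 997, 1030.1 and 1105 in control libraries. The groups overlapped widely, and the log2 fold change of -0.04 ± 0.05 gave a limma adjusted p of 0.615 and an interval of 0.897 to 1.05 fold.

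**Figure D3:**
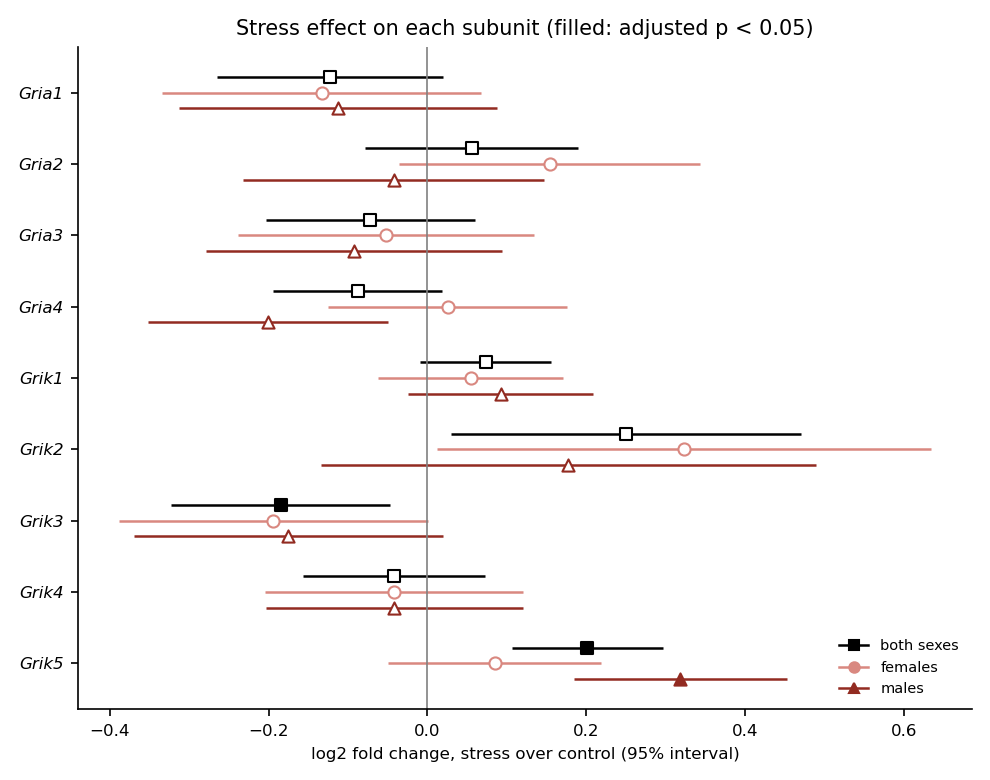
Log2 fold change of stress over control for each subunit transcript with its 95% interval, over both sexes and in females and males separately, with filled symbols for a limma adjusted p under 0.05. Grik5 over both sexes (0.20) and in males (0.32) and Grik3 over both sexes (-0.18) are filled, and every other symbol is open.

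In the authors' deposited table the same 2 members passed, Grik5 with a log2 fold change of 0.20 (adjusted p = 0.00257) and Grik3 with -0.18 (adjusted p = 0.0346). In the authors' deposited table Grik2 had 0.25 with an adjusted p of 0.0663, and the other members had adjusted p-values of 0.158 to 0.673.

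With Grik5 up and Grik3 down, the ratio of these kainate subunits, which rests on the same values, was higher in stress libraries. The log2 ratio of Grik5 to Grik3, here of counts not divided by length, since length moves both treatments alike, ran from 1.39 to 1.61 in stress libraries (median 1.53), against 1.02 to 1.38 in control libraries (median 1.08). All 6 stress libraries were above all 6 control libraries. The pair was chosen after the fold changes were seen, so this is a description. Other ratios separated less. Grik5 to Grik4 was above all control libraries in 5 of the 6 stress libraries, Grik5 to Grik1 in 2 and Grik2 to Grik1 in 1. Per kb of transcript Grik5 gave 16.2% ± 1.02 of the kainate transcripts in stress libraries and 14.9% ± 0.67 in control libraries, and Grik3 gave 2.38% ± 0.17 in stress libraries and 2.86% ± 0.15 in control libraries (SD, n = 6 each). The share of Grik1 was 74.3% ± 0.97 in stress libraries and 74.7% ± 0.67 in control libraries. Summed over its 4 members, the AMPA family had 549.8 ± 42.5 normalized counts per kb of transcript in stress libraries and 578 ± 10.8 in control libraries. The 5 kainate members together had 2903 ± 131 in stress libraries and 2741 ± 63.8 in control libraries (SD, n = 6 each), and in both families the treatments overlapped.

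The 250 bases before the RefSeq start (build GRCm38.p6) are shown for the 2 members that passed the test, at chr4:125490446-125490695 on the plus strand for Grik3 and chr7:25072370-25072619 on the minus strand for Grik5.
Grik3: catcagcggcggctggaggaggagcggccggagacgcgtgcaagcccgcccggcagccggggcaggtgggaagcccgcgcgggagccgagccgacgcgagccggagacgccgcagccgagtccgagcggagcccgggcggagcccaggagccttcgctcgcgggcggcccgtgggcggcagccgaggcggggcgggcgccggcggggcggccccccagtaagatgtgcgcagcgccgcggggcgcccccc
Grik5: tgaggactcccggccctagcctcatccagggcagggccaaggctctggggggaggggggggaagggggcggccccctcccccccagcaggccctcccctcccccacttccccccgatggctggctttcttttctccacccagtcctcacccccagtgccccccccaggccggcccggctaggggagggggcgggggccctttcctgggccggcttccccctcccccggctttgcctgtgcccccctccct
Both stretches were rich in G and C (82.0% in Grik3 and 75.2% in Grik5). Grik3 held 42 CpG dinucleotides and Grik5 8, against a median of 6 over 32851 such stretches. Windows were found for 6 of the 9 members. Corticosteroids are a known arm of the stress response, and the glucocorticoid receptor half-site AGAACA was searched on both strands. It occurred in 0 of these 6 windows, against 16.1% of all windows of that length. So few windows cannot show whether the half-site is rarer in them. The full palindromic response element, which contains half-sites on both strands, also occurred in 0 of the 6 and in 0.009% of all windows. These letters were not in the windows examined, which says nothing of binding elsewhere.

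Among the genes whose products bind AMPA subunits, the auxiliary subunits held the most calls. Auxiliary subunits are membrane proteins that join the receptor and set its gating and delivery to the surface. Of 15 such genes tested, 8 rose, 1 fell and 6 did not pass the test, and the median log2 fold change was 0.36. Over all genes tested 12.8% rose and 13.4% fell. In females alone 2 of the 15 rose and 0 fell, where 11.0% of all genes tested were called. In males alone 7 rose and 1 fell, where 15.8% were called. With a red blood cell marker score as a covariate, 4 of the 15 rose and 1 fell. In that fit 1595 of the 15194 genes tested were called in either direction, against 3984 without the score. The lists of partner genes were drawn up with results of these data known, so their counts are descriptions. Shisa8, of a family of receptor-bound proteins that alter desensitization, was at 65.4, 83.7 and 92.9 normalized counts as lowest, median and highest values in stress libraries, against 38.8, 46.2 and 64.6 in control libraries. It rose by a log2 fold change of 0.76 ± 0.15 (limma adjusted p = 0.00145) without overlap between treatments. Its relative Shisa6 had 135, 218 and 274 normalized counts in stress libraries, against 106, 136 and 151 in control libraries (0.68 ± 0.14, limma adjusted p = 0.00242).

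The cornichon homologs, which aid receptor export and slow its closing, both rose. Cnih3 had 159, 218 and 265 normalized counts as lowest, median and highest values in stress libraries, against 104, 141 and 152 in control libraries, with no overlap (0.62 ± 0.13, limma adjusted p = 0.00271). Cnih2 had 594, 754 and 917 normalized counts in stress libraries, against 509, 563 and 637 in control libraries (0.36 ± 0.07, limma adjusted p = 0.000736), and 4 of 6 stress libraries were above all control libraries. Gsg1l, an auxiliary subunit that slows recovery from desensitization, had 599, 761 and 808 normalized counts in stress libraries, against 463, 563 and 604 in control libraries (0.42 ± 0.08, limma adjusted p = 0.000719).

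One auxiliary subunit went the other way. Cacng2, which encodes stargazin, the prototype of the transmembrane AMPA receptor regulatory proteins, had 207, 224 and 292 normalized counts in stress females and 208, 114 and 181 in stress males. In control females it had 351, 346 and 344, and in control males 333, 340.03 and 378. Every stress library was below every control library, and stress male replicate 2 was the lowest. The log2 fold change was -0.82 ± 0.12 over both sexes (limma adjusted p = 0.000162), -0.54 in females (limma adjusted p = 0.0589) and -1.10 in males (limma adjusted p = 0.000597). The difference between the sexes was not shown (limma adjusted p = 0.587). Cacng7, of the same protein family, did not pass the test at 1486 to 1973 normalized counts in stress libraries and 1798 to 1871 in control libraries (-0.08 ± 0.06, limma adjusted p = 0.361). Cacng4 of that family rose (0.41 ± 0.13, limma adjusted p = 0.0276), a call lost with the red blood cell score. Its relatives Cacng3, Cacng5 and Cacng8 did not pass the test.

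**Figure D4:**
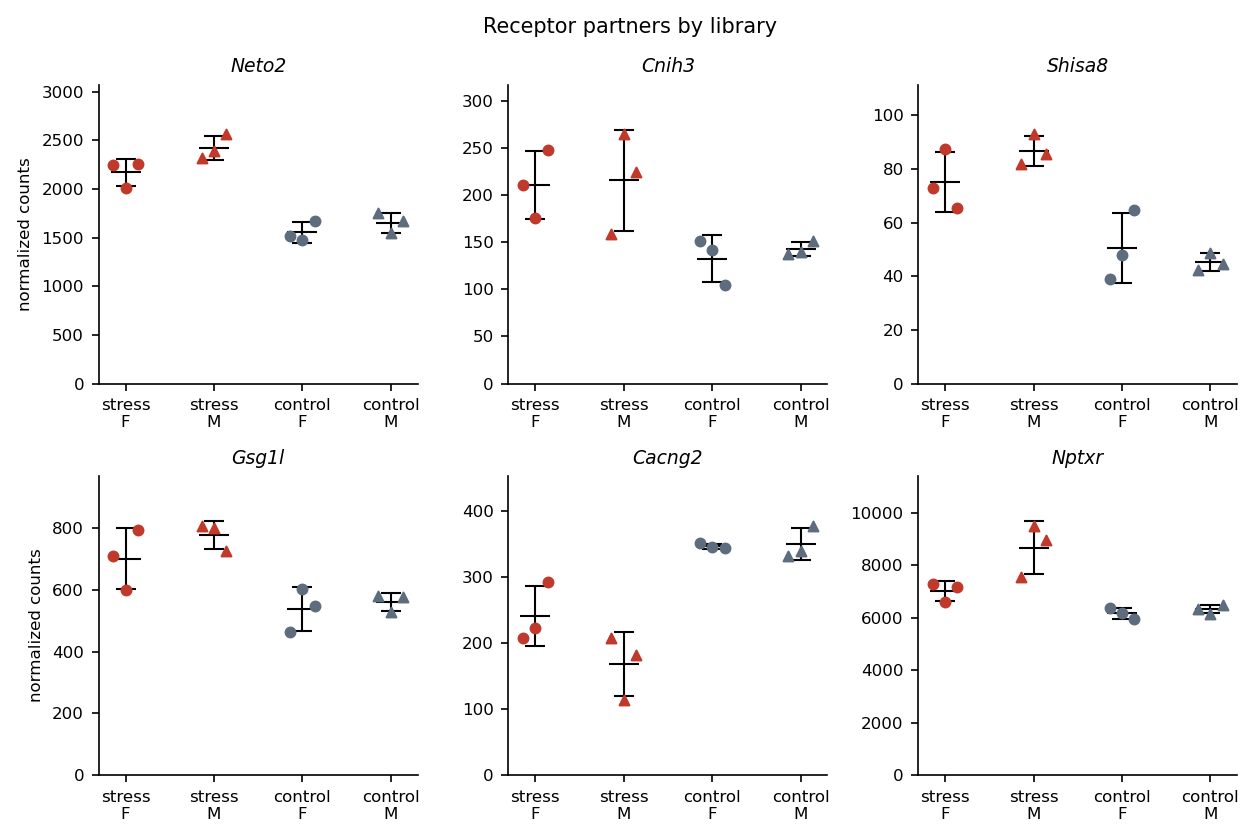
Normalized counts of 6 genes whose products bind AMPA or kainate receptors, in each library, with females as circles, males as triangles, stress in red and control in grey, and black bars giving the mean ± SD of 3 libraries. The 6 genes were chosen after their values were seen; stress libraries lie above all control libraries for Neto2, Cnih3, Shisa8 and Nptxr and below them for Cacng2.

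For assembly, anchoring and trafficking of AMPA receptors, 2 of 17 genes rose, 4 fell and 11 did not pass the test (median log2 fold change -0.05). Beside these counts, 12.8% of all genes tested rose and 13.4% fell. The neuronal pentraxins, secreted proteins that cluster AMPA receptors, and their receptor moved in different directions. Nptx1 fell, with 1599.9, 1735 and 1994 normalized counts as lowest, median and highest values in stress libraries, against 2270.02, 2413 and 2664 in control libraries (-0.45 ± 0.06, limma adjusted p = 4.84e-05). Nptxr, the membrane-bound member, rose, with 6592, 7416 and 9492 normalized counts in stress libraries, against 5935, 6248 and 6479 in control libraries (0.32 ± 0.05, limma adjusted p = 0.000264). For both genes the treatments did not overlap. Nptx2 rose by 0.14 ± 0.05 (limma adjusted p = 0.0456), a call that was lost in 13 of 22 other settings. Nsf, an ATPase that binds the Gria2 product and maintains it at the surface, fell to 9582 to 10869 normalized counts in stress libraries, against 11404 to 12182 in control libraries (-0.23 ± 0.04, limma adjusted p = 0.000414). Cpt1c (-0.13 ± 0.04, limma adjusted p = 0.0340) and Abhd6 (-0.18 ± 0.06, limma adjusted p = 0.0465), whose products regulate AMPA receptor delivery, also fell, but lost their calls in 12 and 13 of 22 settings.

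Of the kainate receptor partners, 4 of the 5 listed genes were tested, of which 1 rose and 2 fell (median log2 fold change -0.14). C1ql2 was not in the table by symbol and was not analysed here. For comparison, 12.8% of all genes tested rose and 13.4% fell. Neto2, an auxiliary subunit that slows the decay of kainate currents, was at 2243, 2014 and 2255 normalized counts in stress females and 2315, 2388 and 2561 in stress males. In control females it was at 1520.3, 1471 and 1675, and in control males at 1749, 1542 and 1668. All stress libraries were above all control libraries. Neto2 rose by a log2 fold change of 0.52 ± 0.05 (limma adjusted p = 2.64e-06), with 0.48 in females and 0.55 in males. Its relative Neto1 had 333 to 576 normalized counts in stress libraries and 382 to 504 in control libraries and did not pass the test (0.07 ± 0.10, limma adjusted p = 0.651). Klhl17, an actin-linked protein that in brain binds the Grik2 product and targets it for degradation, fell, with 342, 407 and 461 normalized counts in stress libraries, against 474, 593 and 619 in control libraries (-0.48 ± 0.08, limma adjusted p = 0.000241). C1ql3, a secreted protein that binds kainate receptors at certain brain synapses, fell by 0.36 on the log2 scale (limma adjusted p = 0.0281) and lost its call in 6 of 22 settings.

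**Figure D5:**
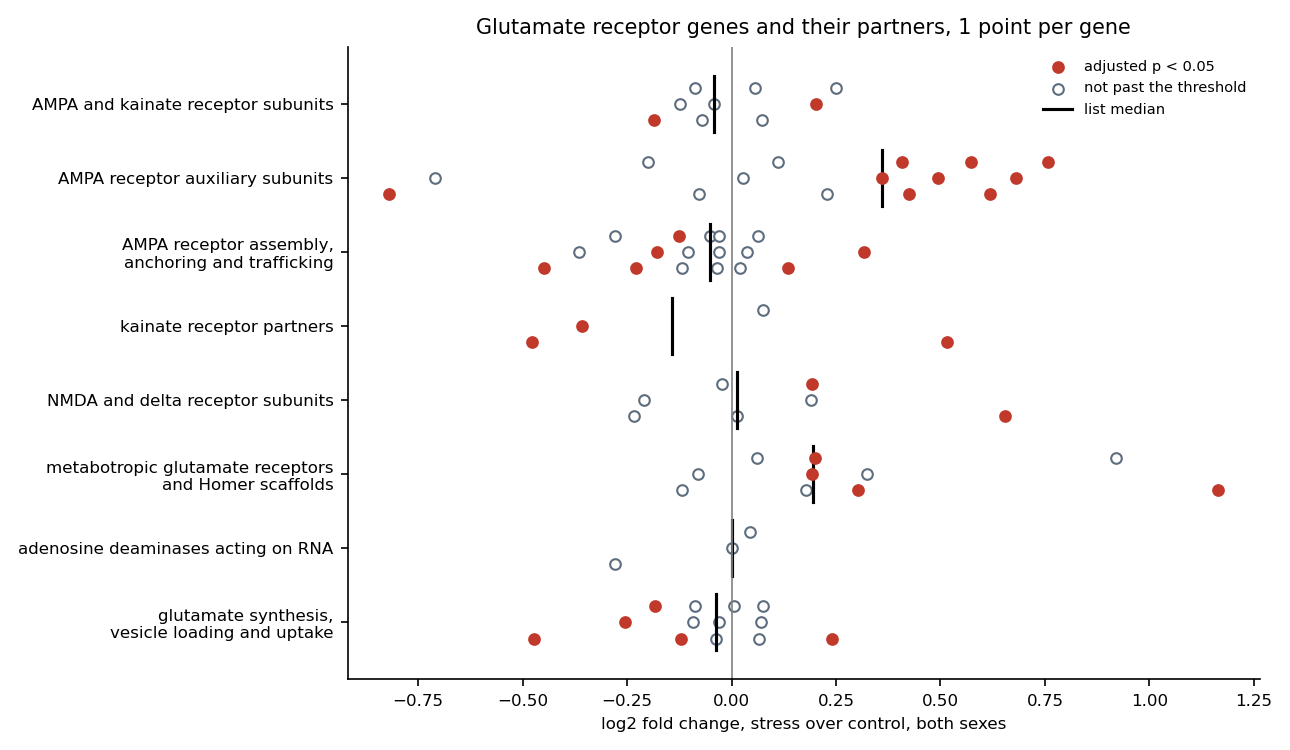
Log2 fold change of stress over control for each gene tested in 8 lists of the glutamate system, with 1 point per gene, filled red where the limma adjusted p is under 0.05, and a black bar at the median of each list. The auxiliary subunits of AMPA receptors have the highest median (0.36), and the 9 pore-forming subunits have a median of -0.04.

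Among the other receptors for glutamate, 2 of 7 NMDA and delta receptor genes tested rose, 0 fell and 5 did not pass the test (median log2 fold change 0.01). The shares of all genes tested were 12.8% higher and 13.4% lower. Grin2d, a developmentally regulated NMDA subunit with slow gating, was at 83.4 to 120.1 normalized counts in stress libraries and 47.0 to 93.0 in control libraries (0.66 ± 0.16, limma adjusted p = 0.00771), and Grin3a rose by 0.19 ± 0.05 (limma adjusted p = 0.0157), a call lost with the red blood cell score (limma adjusted p = 0.146). Grin2b and Grin3b were not in the table by symbol and so were not analysed here. Of 10 metabotropic receptor and Homer scaffold genes tested, 4 rose and 0 fell (median 0.20), beside the same shares of all genes. Grm6 was not in the table by symbol and was not analysed here. Grm3, a receptor that inhibits adenylyl cyclase and release, had the largest of these differences, with 76.5, 82.8 and 97.5 normalized counts as lowest, median and highest values in stress libraries, against 25.6, 35.9 and 56.5 in control libraries (1.16 ± 0.18, limma adjusted p = 0.000208). Grm8, of the same inhibitory class of receptors, rose by 0.30 ± 0.08 (limma adjusted p = 0.00744). The scaffold genes Homer2 (0.20 ± 0.06, limma adjusted p = 0.0166) and Homer1 (0.19 ± 0.07, limma adjusted p = 0.0499) rose, and Homer1 lost its call in 15 of 22 settings.

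Of the 3 genes of the family of adenosine deaminases acting on RNA, 0 passed the test, against 26.2% of all genes tested. Adarb1, whose product edits Gria2 at the Q/R site, had 1241, 1467 and 1567 normalized counts as lowest, median and highest values in stress libraries, against 1311, 1371 and 1454 in control libraries (0.05 ± 0.06, limma adjusted p = 0.600). Adarb2, a relative with no known editing activity, at 10.5 to 20.8 normalized counts in stress libraries and 8.66 to 30.2 in control libraries, had the lowest p of the 3 (-0.28 ± 0.29, limma adjusted p = 0.526).

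On the side of glutamate supply, 1 of 13 genes rose, 4 fell and 8 did not pass the test (median log2 fold change -0.04). By the same rule 12.8% of all genes tested rose and 13.4% fell. Got1, an aminotransferase that makes glutamate, had 3151 to 3703 normalized counts in stress libraries, against 4039 to 4164 in control libraries (-0.25 ± 0.04, limma adjusted p = 0.000421). Gls2, whose product makes glutamate from glutamine (-0.47 ± 0.14, limma adjusted p = 0.0236), and the glutamine transporter Slc38a2 (-0.12 ± 0.04, limma adjusted p = 0.0384) also fell, but lost their calls in 6 and 10 of 22 settings. Slc38a1, another glutamine transporter, rose (0.24 ± 0.04, limma adjusted p = 0.000837). Slc17a6, the main vesicular glutamate transporter of sensory neurons, was at 6258 to 7218 normalized counts in stress libraries and 6217 to 6823 in control libraries and did not pass the test (0.08 ± 0.04, limma adjusted p = 0.188). The 3 genes most like Grik5 across the 12 libraries, among 11676 compared on the log scale, were Ufsp1 (Pearson r 0.974), Nptxr (0.968) and Camsap3 (0.967), a description over libraries that share the treatment difference.

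In bulk tissue, fewer cells of a type and less RNA per cell cannot be told apart. The marker calls below stand beside 12.8% of all genes tested higher and 13.4% lower in stress. The summed level of 10 pan-neuronal markers ran from 225348 to 247514 normalized counts in stress libraries and from 240444 to 251244 in control libraries, with 2 markers higher, 2 lower and 6 not called. With their score as a covariate Grik5 stayed at 0.21 (limma adjusted p = 0.00447) and Grik3 at -0.18, with its call lost (adjusted p = 0.0700). Markers of A-fibre mechanoreceptors and proprioceptors summed to 162896 to 201123 in stress libraries and 245834 to 267937 in control libraries (1 of 9 higher, 4 lower). Most of that sum was Nefm, at means of 129597 in stress and 178399 in control libraries, and Nefh, at 45091 and 65610. Spp1 and Calb1 were also lower. Pvalb was higher (0.17 in log2, limma adjusted p = 0.0277), and Ntrk2, Ntrk3, Runx3 and Cntnap2 were not called. Markers of peptidergic nociceptors summed to 31533 to 33321 in stress libraries and 35698 to 38051 in control libraries (1 of 6 higher, 2 lower). Those of non-peptidergic nociceptors and itch neurons summed to 37666 to 45230 in stress libraries and 42390 to 46898 in control libraries (1 of 9 higher, 6 lower). The peptide genes Nppb (-4.38) and Sst (-4.10) had the largest falls of this list in log2, while Mrgpra3 rose (0.62, limma adjusted p = 3.02e-05). Mrgprd and P2rx3 were not called. Satellite glia markers summed to 38925 to 45843 in stress libraries and 56161 to 62932 in control libraries (1 of 7 higher, 4 lower), and fibroblast markers to 47026 to 66709 in stress libraries and 76068 to 81807 in control libraries (0 of 6 higher, 5 lower). Red blood cell markers, 8 of 10 of which were higher and 0 lower, summed to 4169.8 to 12778 normalized counts in stress libraries and 2379 to 4806 in control libraries. With the red blood cell score as a covariate Grik3 was at -0.12 (limma adjusted p = 0.480). In that fit the auxiliary subunit genes had a median of 0.30, and Cnih2 lost its call (0.30, limma adjusted p = 0.0564). The part of the nociceptor, A-fibre, satellite glia, fibroblast and red blood cell markers in these results was otherwise not tested. Of 8 spinal cord neuron markers, 2 were in the table, at a sum of 55.9 to 129 normalized counts in stress libraries and 58.0 to 116 in control libraries, and the defining markers Slc32a1 and Chat were not analysed here. Depth, estimated from the smallest step between values, was 17300000 to 27000000 reads in 5 stress libraries and 16500000 to 23400000 reads in the 6 control libraries, and could not be read with certainty from the remaining stress female library, replicate 2. Xist and Ddx3y levels matched the labelled sex in all 12 libraries.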

How the data were processed

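The deposited table held, per library, a normalized signal per gene that the authors scaled for library size. STAR, Salmon, DESeq2 and build mm10 are named in the submitters' processing notes, without versions or roles. Libraries were made with a directional kit, per the labels' protocols. The annotation used for counting is not given in the sources used here. That deposited table gave the authors' log2 fold changes with errors, a test score, and p-values. Per-library values were not whole, and of values up to 12, 28.9% to 66.3% in stress libraries and 72.8% to 86.6% in control libraries lay within 0.1 of a multiple of 1 read's worth. No count model was fitted, and depth estimates are less sure in stress libraries.

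Values were analysed as log2(value + 1) with limma 3.58.1 (R 4.3.3), with a trended prior variance and 1 mean for each of the 4 groups. The filter kept genes that reached 10 in 3 or more libraries (15194 of 15322, with 128 removed). Fold changes on this scale understate changes of low genes. Benjamini-Hochberg adjustment ran over all genes tested, with calls under 0.05. Contrasts compared stress with control over both sexes and in each sex, the difference between the sexes in that effect, and males against females. The steps were tested on simulated data. Python 3.11.15 made levels, shares and sequence windows. Lengths and coordinates came from GENCODE M21 and upstream windows from RefSeq.

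The members and gene lists were chosen with earlier results of these data known. All members were named. From each other list, called genes were named where there were 6 or fewer, otherwise the 6 of lowest p, and where none was called the 1 of lowest p. Adarb1, Neto1, Neto2 and Slc17a6 were always named. Cacng3, Cacng4, Cacng5, Cacng7 and Cacng8 were added after their values were seen. An item that this rule names is not reported here. Likeness to Grik5 was taken over genes with a mean of at least 100. Alternatives covered pseudocount, filter, scaling, prior variance, weights, model, replicate block, covariates, length and leaving out each library.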

Additional observations from a re-analysis of the deposited data

Results flagged for a closer look

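The sets examined were the members and the genes named by rule, in each treatment. Of these 78 sets of 6 libraries, 3 held a library far from the other 5 by Dixon's ratio of gap to range, whose critical value is 0.625. Chance gives about 1 in 20. No set of a pore-forming subunit was among them. Cnih3 was at 104.2 normalized counts in control female replicate 3, against 137.0 to 151.6 in the other control libraries. C1ql3 was at 149.8 in control male replicate 3, against 198.2 to 225.8 in the others. Slc17a6 was at 6822.9 in control male replicate 3, against 6217.2 to 6426.2 in the others.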

How the results depend on the processing

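Grik5 over both sexes stayed past the threshold in 24 of 25 alternatives, with log2 fold changes of 0.19 to 0.22, and lost its call only where the red blood cell score was a covariate (adjusted p = 0.0626). That score also ended its call in males (0.32, adjusted p = 0.0514). Grik3 passed in 12 of 25 and kept its direction in all 25. Beside 9 left-out libraries, its call was lost under upper quartile scaling (limma adjusted p = 0.0593), 1 prior variance for all genes (0.0754) and both marker scores. Gria4 in males passed in 2 of 23, with the replicate block (limma adjusted p = 0.0399) and without stress female replicate 1 (0.0477). No called value changed direction. Scaling moved the median of all genes by at most 0.01.

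Counts over all genes moved with single libraries. With each library left out they ran from 3155 to 3959 over both sexes (3984 in all), 865 to 1951 in females (1676) and 1334 to 2630 in males (2403). In females the count was 889 when control female replicate 1 was left out, 865 for control female replicate 2 and 891 for stress female replicate 1. In males it was 1334 without control male replicate 2. For the difference between the sexes the count was 0 to 1, and for males against females 11 to 30 (15), with 30 without stress female replicate 2 and 27 without stress male replicate 1. With the red blood cell score as a covariate the counts were 1595 over both sexes, 1093 among females and 697 among males, and the cause was not tested.

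With the replicate number as a block within sex, 4133 genes were called over both sexes, 1840 among females, 2607 among males and 2 for the difference between the sexes. As deviations from group means, libraries of the same number and sex correlated at -0.02 to 0.15, not each best with its own number. Those of different numbers correlated at -0.19 to 0.13. With 3 libraries per group these values cannot show whether libraries of the same number share a litter. The block could not be fitted for males against females, nor the additive model for effects within a sex. The order and shares of the subunits changed with the length used. Genes near the filter minimum of 10, such as Adarb2, rest on few reads.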
